A study of Mus musculus with 12 samples.

Results

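Rps3a1 and Rps3a2 were taken by symbol, as 2 of the 35855 genes to which the deposited transcripts belonged, and both were chosen by their genotype differences in earlier results of these data, the same counts and TPM values as used here. Rps3a1 (ENSMUSG00000028081) is the protein-coding gene of ribosomal protein S3A, and Rps3a2 (ENSMUSG00000062611) is annotated as one of its processed pseudogenes. Each gene is represented by 1 transcript in the files, so that the value of the gene is the value of that transcript. Levels, their sum and the share of the pair given to Rps3a2 were compared between libraries labelled as CD8 T cells of WT and TCF-1 cKO mice. This was done pre-transplant and at day 7 post-transplant.

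The data are 12 RNA-seq libraries, 3 in each of 4 groups, from mice of C57BL/6 background. They are labelled as CD8 T cells, sorted from spleen. TCF-1 cKO mice carried a floxed allele of Tcf7, the gene of the transcription factor TCF-1, which CD4cre removes at the double-positive stage of thymic development, so that all later T cells of both the CD4 and the CD8 lineage come from cells that expressed the recombinase. WT mice carried neither, and the methods name both C57BL/6J and the congenic B6-Ly5.1 strain as WT donors. Post-transplant libraries came from donor cells, sorted by the donor MHC molecule H2Kb, of lethally irradiated BALB/c recipients that had also received WT bone marrow. The methods give a lower age limit for the recipients and say that donors were matched to each other and to recipients in age as far as possible, while the age of each mouse is not given in the sources used here.

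Ribosomal protein S3A is a core protein of the small (40S) ribosomal subunit, lies near the path of the messenger RNA, and is made in every cell that translates. A processed pseudogene is a copy of a spliced messenger RNA that was reverse transcribed and inserted elsewhere in the genome, so it has no introns, and ribosomal protein genes have many such copies in mammals. Kallisto assigns a fragment to every transcript that holds its words of 31 bases (31-mers), and it divides fragments that match several transcripts between them by an iterative estimate.

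In the GENCODE M21 annotation of GRCm38, Rps3a1 lies on the minus strand of chromosome 3 (chr3:86137940-86142702) and its transcript has 977 bases in 6 exons. Rps3a2 is a single stretch of 792 bases on the minus strand of chromosome 14 (chr14:88123017-88123808). The 792 bases align without a gap to the coding sequence of Rps3a1, from its start codon to the codon before the stop, and 4 of them differ, an identity of 99.5%. Counted from the A of the start codon, with the Rps3a1 base first and the Rps3a2 base last, the differences are T216C in exon 3, T534C in exon 4, and A645T and T668C, both in exon 5. T668C changes an amino acid and the other 3 are silent. All 264 codons of the Rps3a2 copy are free of stop codons, and the protein of Rps3a1 has 264 residues.

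These 4 bases are the places at which a fragment of the shared coding sequence can be told apart. The stretches around them are shown because the assignment of such fragments to one gene or the other turns on them. They are in lower case with the differing bases in capitals, 5′ to 3′ on the coding strand and in GRCm38. The first lies in exon 3 of Rps3a1, chr3:86141362-86141392, against chr14:88123578-88123608:
Rps3a1, positions 201 to 231: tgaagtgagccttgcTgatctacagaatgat
Rps3a2, positions 201 to 231: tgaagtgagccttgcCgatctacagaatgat
The next lies in exon 4, chr3:86139054-86139084, against chr14:88123260-88123290:
Rps3a1, positions 519 to 549: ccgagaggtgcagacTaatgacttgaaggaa
Rps3a2, positions 519 to 549: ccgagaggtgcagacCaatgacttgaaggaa
The last joins the end of exon 5 to the start of exon 6, chr3:86138101-86138526 with the intron between them left out, against chr14:88123126-88123179:
Rps3a1, positions 630 to 683: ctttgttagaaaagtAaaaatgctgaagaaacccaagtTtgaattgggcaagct
Rps3a2, positions 630 to 683: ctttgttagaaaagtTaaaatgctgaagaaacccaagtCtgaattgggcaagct

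The distinguishing sequence was uneven between the genes. Of the 947 different 31-mers of Rps3a1, 646 were shared with Rps3a2 (68.2%) and 219 were found in no other gene (23.1%). The 301 absent from Rps3a2 include those that reach the 133 bases before the start codon or the 49 bases after the stop codon. Rps3a2 has neither stretch, so a fragment reaching them is told apart whatever its base at the 4 positions. Of the 762 of Rps3a2, the same 646 made up 84.8%, 116 were absent from Rps3a1, and 54 were found in no other gene (7.09%). Those 54 all span position 645 or 668. The base that Rps3a2 has at position 216 was also present in 4 of the 5 other copies that hold at least 20% of the Rps3a1 31-mers, and its base at position 534 in 5 of 5, whereas its bases at 645 and 668 were present in 0 of 5.

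**Figure D1:**
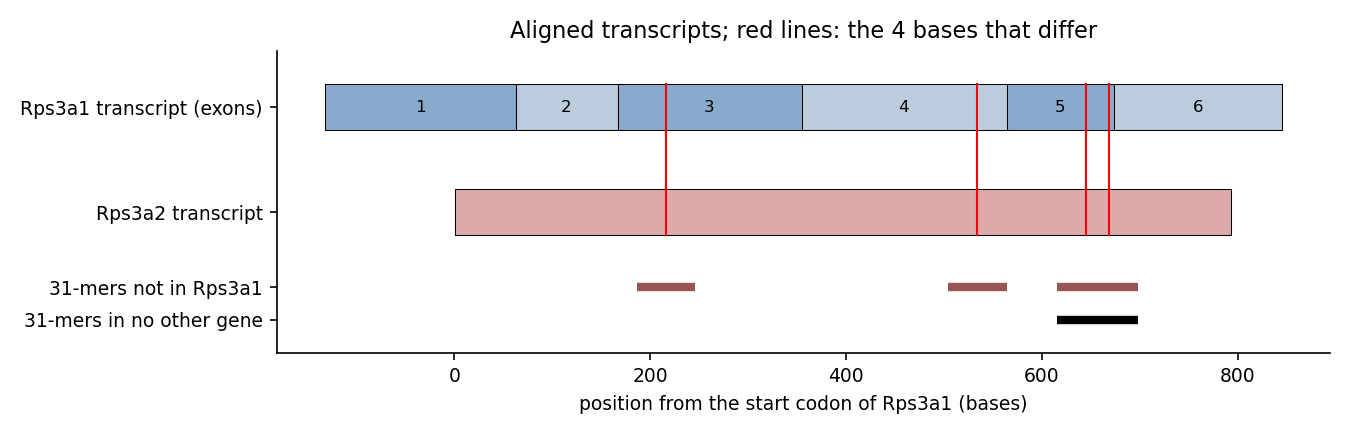
Map of the Rps3a1 transcript, with its 6 exons numbered, and of the Rps3a2 transcript aligned beneath it, by position in bases from the start codon. Red lines mark the 4 differing bases, and the lower bars mark the sequence covered by the 31-mers of Rps3a2 that are not in Rps3a1 and, of these, by those found in no other gene, which form a single stretch at positions 615 to 698.

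Library totals lay between 18184814 and 32657005 estimated counts post-transplant, between 18978963 and 28884454 in WT pre-transplant, and between 4520270 and 9577076 in TCF-1 cKO pre-transplant. Tcf7, the targeted gene, was lower in pre-transplant TCF-1 cKO (56.5 to 96.7 CPM, counts per 1000000 of the library total) than in WT (114 to 204 CPM). Post-transplant it was 8.97 to 9.46 CPM in TCF-1 cKO, against 6.87 to 17.1 CPM in WT, and the library labelled WT post-transplant replicate 3 was the one below all TCF-1 cKO libraries. These gene sums include the exons that the floxed allele keeps. A source label of post-transplant TCF-1 cKO replicate 2 reads CD4, and its Cd4 level was 1.41 CPM, beside 4.30 and 2.40 CPM in the other libraries of its group. The 6 CD8 T cell markers summed to 629 to 690 CPM in TCF-1 cKO before transplant, against 1330 to 1434 CPM in WT, and to 4577 to 5445 CPM in TCF-1 cKO post-transplant, against 3524 to 3770 CPM in WT. They were thus lower in TCF-1 cKO before and higher after transplant, as the mean of Rps3a1 was, and their part in the genotype differences was not tested. The 5 B cell markers summed to 8926 to 16400 CPM before and 225 to 464 CPM after transplant. Before transplant they thus stood above the CD8 T cell markers in both genotypes, and after transplant below them. Pre-transplant levels may therefore not be those of CD8 T cells alone. In these bulk libraries, fewer cells of a type and less RNA per cell cannot be told apart.

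Before transplant, Rps3a2 was at levels close to those of Rps3a1 in TCF-1 cKO and near the bottom of the scale in WT. Rps3a1, in TPM (which corrects for library depth and for transcript length), was 1613, 750 and 1620 in WT replicates 1 to 3, and 527, 588 and 283 in TCF-1 cKO replicates 1 to 3. The groups did not overlap, and TCF-1 cKO was lower. Rps3a2 was 0.638, 14.9 and 5.76 TPM in the same WT libraries and 468, 525 and 305 TPM in the TCF-1 cKO libraries. Each TCF-1 cKO library was far above each WT library, and the ratio of the group means was 60.9.

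Summed over both genes, the TPM level before transplant was 1614, 765 and 1626 in WT and 995, 1113 and 587 in TCF-1 cKO. Here the groups overlapped, with WT replicate 2 between the TCF-1 cKO libraries, and the ratio of the group means was 0.673. On normalized counts the log2 fold change of TCF-1 cKO against WT was -1.77 for Rps3a1 (SE 0.46), 5.68 for Rps3a2 (SE 0.89) and -1.01 for the sum (SE 0.45). These contrasts chose the genes and are given without a test. At an FDR of 0.1, edgeR's quasi-likelihood test called 0.0373% of the 18757 genes tested in this comparison, 0.0160% as higher and 0.0213% as lower.

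At day 7 post-transplant the pair was separated in the same way in its share but not in its sum. Rps3a1 was 783, 253 and 1404 TPM in WT replicates 1 to 3 and 1418, 1380 and 1680 TPM in TCF-1 cKO. TCF-1 cKO was higher on average, and WT replicate 3 lay within its range, whereas on CPM the groups did not overlap. Rps3a2 was 2.61, 1.86 and 4.26 TPM in WT and 962, 926 and 1140 TPM in TCF-1 cKO. The groups were again far apart, with a ratio of group means of 347.

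The sum of both genes post-transplant was 786, 255 and 1408 TPM in WT and 2380, 2306 and 2820 TPM in TCF-1 cKO. All TCF-1 cKO libraries were above all WT libraries, with a ratio of means of 3.06. The log2 fold change was 0.78 for Rps3a1 (SE 0.51), 8.30 for Rps3a2 (SE 0.53) and 1.37 for the sum (SE 0.51), in a comparison in which 17.9% of the 16026 genes tested were called. The value for Rps3a1 was less than 2 SE from 0 and lay between 0.11 and 1.19 under the other settings, with the lowest, 0.11 (SE 0.34), under an offset for GC content and transcript length, which gave 0.70 (SE 0.34) for the sum. Without WT replicate 2 the values were 0.37 for Rps3a1 and 0.96 for the sum. Without the library labelled WT post-transplant replicate 3 the log2 fold changes were 1.26, 8.51 and 1.84, and without the TCF-1 cKO library with the CD4 label they were 0.79, 8.31 and 1.38.

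**Figure D2:**
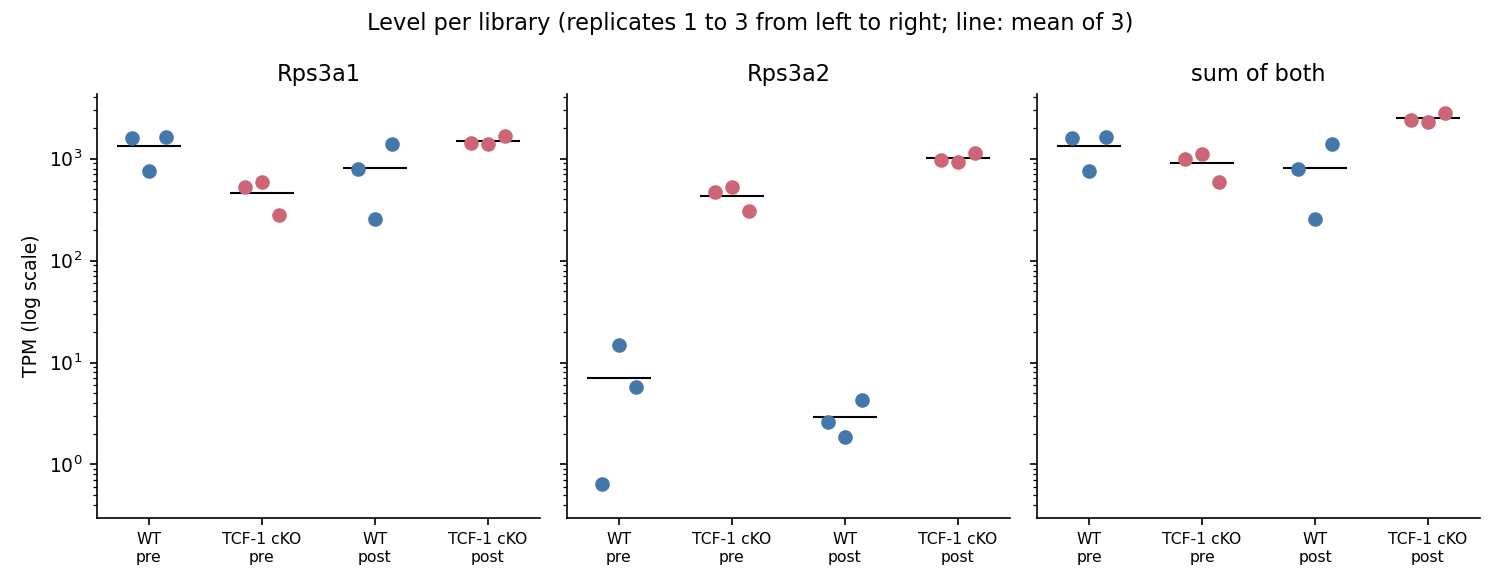
TPM of Rps3a1, of Rps3a2 and of their sum in each of the 12 libraries on a logarithmic axis, WT in blue and TCF-1 cKO in red, with the mean of each group of 3 as a line. Rps3a2 lies between 0.638 and 14.9 TPM in the 6 WT libraries and between 305 and 1140 TPM in the 6 TCF-1 cKO libraries, while Rps3a1 and the sum of both differ far less.

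The share of the pair's estimated counts given to Rps3a2 separated the genotypes in every library. It was 39.4%, 40.04% and 45.2% in TCF-1 cKO replicates 1 to 3 before transplant, and 33.6%, 33.5% and 33.6% post-transplant. In WT it was 0.0293%, 1.50% and 0.260% before transplant and 0.245%, 0.542% and 0.226% post-transplant. The 95% Wilson intervals were at their widest 38.4% to 41.7% in TCF-1 cKO and 1.30% to 1.74% in WT. They cover counting error only, neither the division of shared fragments nor amplification. Groups differed by 40.9 percentage points before and by 33.2 percentage points after transplant, given as a description.

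**Figure D3:**
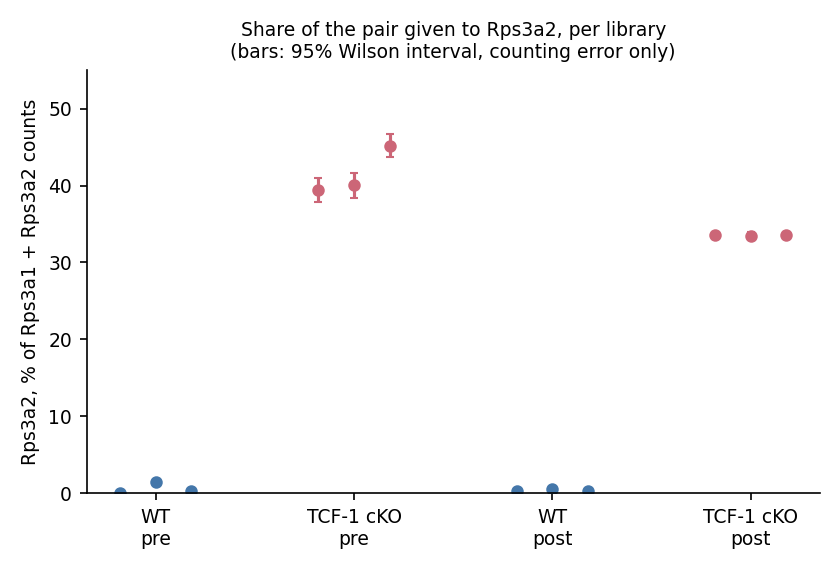
Rps3a2 as a percentage of the Rps3a1 and Rps3a2 estimated counts in each library, replicates 1 to 3 from left to right in each group, with 95% Wilson intervals. The post-transplant TCF-1 cKO libraries lie within 33.5% to 33.6%, the pre-transplant ones within 39.4% to 45.2%, and all WT libraries at 1.50% or below.

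Agreement within the post-transplant TCF-1 cKO group was close. Its 3 shares had an SD of 0.0704 percentage points, and the ratio of Rps3a2 to Rps3a1 in TPM was 0.679, 0.671 and 0.678. Before transplant that ratio was 0.887, 0.894 and 1.08, and in WT it ran from 0.000396 to 0.0199 over the 6 libraries. From pre- to post-transplant the mean share in TCF-1 cKO fell from 41.5% ± 3.18 (SD, n = 3) to 33.6% ± 0.0704 (SD, n = 3), and the libraries did not overlap. A two-sided exact permutation test gave p = 0.1, the smallest that 3 libraries against 3 allow, so this design could not reach 0.05. In WT the share was 0.597% ± 0.792 (SD, n = 3) before and 0.338% ± 0.177 (SD, n = 3) after transplant, which overlapped (exact permutation p = 0.8).

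The pre-transplant libraries with the shortest fragments stood apart in their share. The mean fragment length read from the deposited effective lengths was 312, 257 and 193 bases in TCF-1 cKO replicates 1 to 3 and 280, 185 and 297 bases in WT. In each genotype the library with the shortest fragments had the highest share given to Rps3a2 (45.2% and 1.50%) and the lowest summed level (587 and 765 TPM). A fragment of mean length covers at least 1 of the 4 differing bases at 93.5%, 78.8% and 64.2% of its possible positions on the Rps3a1 transcript in those TCF-1 cKO libraries, and position 645 or 668 at 30.03%, 27.7% and 25.5%. These values count a base anywhere in the fragment, also between the sequenced ends. They leave out fragments told apart by sequence outside the shared stretch, so they are not the share of fragments that can be assigned. In pre-transplant TCF-1 cKO the share rose as fragments shortened over all replicates, at 39.4%, 40.04% and 45.2%. Elsewhere the order was not the same. WT replicate 3, with longer fragments than replicate 1, had the higher share (0.260% against 0.0293%). In post-transplant TCF-1 cKO, where shares ran only from 33.5% to 33.6%, the library with the shortest fragments (239 bases) had the lowest share. The part of fragment length in the share was not tested. Without TCF-1 cKO replicate 3 the pre-transplant difference in share was 39.1 percentage points, and without WT replicate 2 it was 41.4.

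Few estimated counts were given to the further copies beside those of the pair. The 5 copies that hold at least 20% of the Rps3a1 31-mers were all annotated as processed pseudogenes and held 35.7% to 54.3% of them. Rps3a3 on chromosome 13 had 101, 74.6 and 96.7 estimated counts in post-transplant TCF-1 cKO and 14.7, 1.45 and 11.5 in WT. Gm13408 on chromosome 2 had 44.9, 325 and 372 against 3.87, 1.85 and 4.65 counts. In both, every TCF-1 cKO library was above every WT library at this stage.

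The same order was seen post-transplant in Gm5586 on chromosome 7, with 128, 193 and 265 counts against 19.5, 5.33 and 27.7, and in Gm7600 on chromosome 8, with 183, 109 and 189 against 6.05, 0 and 22.7. Gm8960 on chromosome 10 had at most 7.13 counts in any library. Before transplant, where the depth of the genotypes differed, levels are given in CPM. Gm7600 was at 6.80, 5.46 and 0.787 CPM in TCF-1 cKO and 0.0961, 0.640 and 0.177 CPM in WT, without overlap. The other 4 copies overlapped between genotypes, among them Gm13408, at 0.352 to 8.32 CPM in TCF-1 cKO against 0.104 to 0.766 CPM in WT, and Rps3a3, at 0.353 to 1.17 and 0.450 to 0.514 CPM. Together, all 11 other genes that share any 31-mer with Rps3a1 took 1.50% to 2.21% of the counts of the whole family in post-transplant TCF-1 cKO and 0.725% to 2.52% in WT. Before transplant they took 8.04% to 15.6% in TCF-1 cKO and 0.813% to 4.12% in WT. Much of the former lay in Gm2961 (107 to 269 counts) and the protein-coding Khdrbs2 (150 to 241 counts). These hold only 0.317% and 2.32% of the Rps3a1 31-mers, so the figure is not a measure of shared fragments. With them in the total, Rps3a2 held 33.3% to 41.6% of the family before and 32.7% to 33.1% after transplant in TCF-1 cKO, and at most 1.44% in WT.

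The deposited values hold no bases of the fragments. RNA from Rps3a2 and RNA from an Rps3a1 allele that carries the Rps3a2 bases therefore cannot be told apart here, and which of them was present was not tested. The mice of both genotypes are labelled with the same background strain.

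Between stages, both members rose in TCF-1 cKO and neither passed the test in WT. The libraries compared here also entered the genotype contrasts that chose the genes, so these tests are not fully independent of that choice. In TCF-1 cKO the mean of Rps3a1 went from 466 ± 161 to 1493 ± 164 TPM and that of Rps3a2 from 433 ± 114 to 1009 ± 115 TPM (SD, n = 3), with no overlap between stages. The log2 fold change of post- against pre-transplant was 3.69 for Rps3a1 (SE 0.36, adjusted p = 0.000166), 3.20 for Rps3a2 (SE 0.34, adjusted p = 0.000215) and 3.51 for the sum (SE 0.35, adjusted p = 0.000177) by edgeR (quasi-likelihood, Benjamini-Hochberg adjusted), where 36.5% of the 18535 genes tested were called. Scaling to library totals instead of TMM factors lowered the median log2 fold change of all genes from -0.29 to -1.89, a shift of -1.599. Under library totals the changes were 2.05 for Rps3a1, 1.59 for Rps3a2 and 1.88 for the sum, and passed the test. Relative to the median of all genes, in the same order, they were 3.97, 3.49 and 3.79 under TMM. Under library totals these relative values were 3.94, 3.48 and 3.76. A change of scaling moves all genes nearly alike, so the likeness of the relative values follows from the subtraction. On log2(TPM + 1) with limma the changes were smaller, at 1.74, 1.25 and 1.52, and also passed the test.

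In WT, Rps3a1 was 1328 ± 500 TPM before and 814 ± 576 TPM after transplant, and Rps3a2 was 7.10 ± 7.22 and 2.91 ± 1.23 TPM (SD, n = 3), with overlap in both. The log2 fold changes on normalized counts were 0.42 for Rps3a1 (SE 0.59, adjusted p = 0.690), -0.13 for Rps3a2 (SE 1.06, adjusted p = 0.953) and 0.42 for the sum (SE 0.59, adjusted p = 0.690) by edgeR, where 20% of the 16790 genes tested were called. The sign depended on the scale: library totals gave -0.38 for Rps3a1 and -0.39 for the sum, and without the library labelled WT post-transplant replicate 3 these were -0.04 and -0.05. Library totals moved the median of all genes in this comparison from -0.30 to -1.25. Whether the change between stages differed between genotypes was not tested, since it is built from the contrasts that chose the genes.

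Markers of other cell types moved with the stage comparison in both genotypes. The sum of the B cell markers in TCF-1 cKO was 8926 to 14430 CPM before and 225 to 355 CPM after transplant, and in WT it was 13010 to 16400 and 396 to 464 CPM. The 5 myeloid markers summed to 1199 to 3103 CPM before and 54.4 to 187 CPM after transplant over both genotypes, and the 4 erythroid markers to 2414 to 13860 and 124 to 535 CPM. None of these markers was at 0 in all libraries of a group. The CD8 T cell markers were higher post-transplant in both genotypes, by the values given above. The part of these markers in the changes of the pair was not tested.

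The other cytosolic ribosomal protein genes, 31 of the 40S and 47 of the 60S subunit, were measured in the same fits, and all 78 were tested in each comparison. Before transplant 0 of them were called between genotypes by edgeR, against 0.0373% of all genes, and 8 (10.3%) had an unadjusted p under 0.05, against 17.7% of all genes. The median log2 fold change was -0.67, beside 0.05 over all genes. Rps7, of the 40S subunit, was lowest at -1.10 (SE 0.42) and Rpl12, of the stalk base of the 60S subunit, highest at -0.26 (SE 0.46). Rps3a1, at -1.77, was below all 78, and the sum of the pair, at -1.01, was below 77. Leaving out TCF-1 cKO replicate 3, the library with the shortest fragments of its group, raised the number called from 0 to 70, with all genes called rising from 7 to 2739, while leaving out any other library gave 0.

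Post-transplant, 3 ribosomal protein genes rose and 5 fell in TCF-1 cKO against WT, against 2.51% of all genes higher and 15.4% lower. The median was 0.22, beside 0.15 over all genes. Rpl7 (log2 fold change 1.58, SE 0.48) and Rpl9 (1.41, SE 0.44) rose, and Rpl8 (-3.52, SE 0.76), Rplp0, the scaffold of the ribosomal stalk (-3.09, SE 0.77), and Rps2 (-2.30, SE 0.56) fell. The sum of the pair, at 1.37, was above 74 of the 78 genes, and Rps3a1 alone, at 0.78, above 59. Without the library labelled WT post-transplant replicate 3 the number called was 35, with all genes called rising from 2868 to 5299, and without any one of the other 5 libraries it was 0, with 0 to 2 of all genes called.

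Between stages 72 of the 78 ribosomal protein genes rose in TCF-1 cKO and 50 in WT. In TCF-1 cKO 72 were higher and 0 lower, with a median log2 fold change of 3.14 beside -0.29 over all genes, where 19.7% of all genes were called higher and 16.8% lower. Rpl39 (5.08), Rps7 (4.64) and Rps14 (4.55) led, and Rpl8 (-0.42), Rplp0 (0.58) and Rpl37a (0.86) were lowest and did not pass the test. Rps3a1, at 3.69, was above 54 of the 78 and Rps3a2, at 3.20, above 43. Under library totals, 58 were higher and 1 lower.

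In WT 50 of the 78 rose and 0 fell, with a median of 1.48 beside -0.30 over all genes, where 9.70% were called higher and 10.3% lower. Rps14 (3.14), Rpl39 (3.05) and Rpl13a (2.84) led, and Rpl4 (0.24), Rps4x (0.30) and Rpl12 (0.33) were lowest and did not pass. Rps3a1 and the sum, both at 0.42, were above 4 of the 78. Under library totals 16 were higher and 0 lower, and leaving out 1 WT pre-transplant library gave 18, 28 and 17 for replicates 1 to 3. The share of called genes that were higher was 54.0% in TCF-1 cKO and 48.4% in WT under TMM, and 13.5% and 14.8% under library totals.

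**Figure D4:**
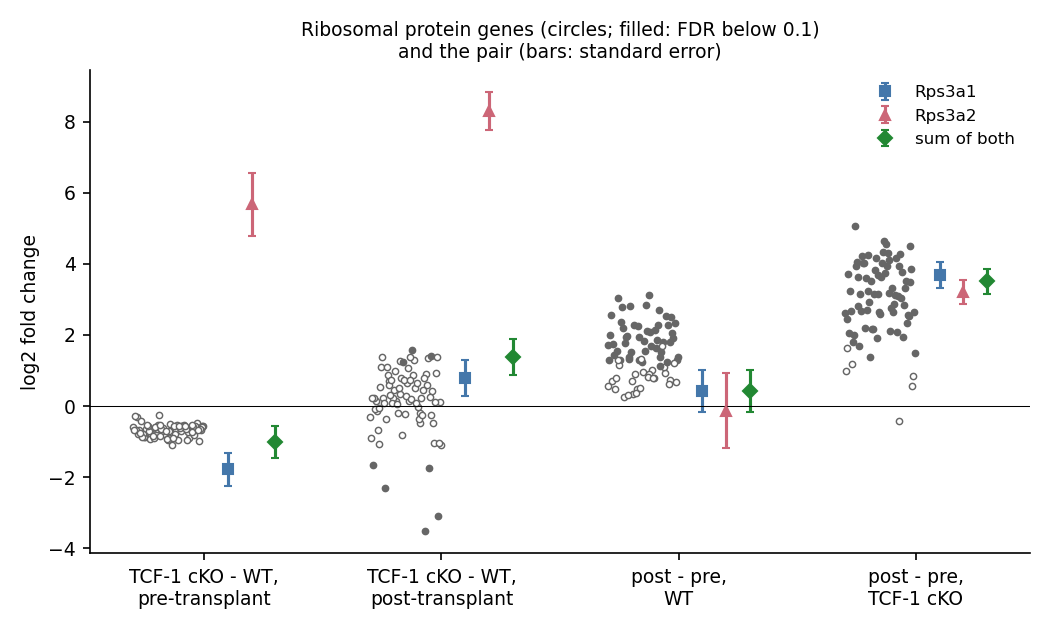
Log2 fold changes of the 78 ribosomal protein genes (circles, filled where edgeR's FDR was below 0.1) and of Rps3a1, Rps3a2 and their sum (with standard errors) in the 4 comparisons. Rps3a1 lies below all circles before transplant between genotypes (-1.77) and among the lowest between stages in WT (0.42), while in TCF-1 cKO between stages both members lie amid the circles (3.69 and 3.20).

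Set against the other 40S genes within a library, in TPM, the pair stood differently in the groups. The sum was 1.10, 0.512 and 1.19 times the median 40S gene in WT before transplant and 1.31, 1.31 and 0.432 times in TCF-1 cKO. Post-transplant it was 0.420, 0.151 and 0.541 times the median in WT and 0.981, 0.912 and 1.29 times in TCF-1 cKO. The post-transplant groups did not overlap in this measure, whereas the pre-transplant groups did. Rps3a1 alone was 0.695, 0.689 and 0.208 times the median in pre-transplant and 0.584, 0.546 and 0.768 times in post-transplant TCF-1 cKO.

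Copies of other ribosomal protein genes were examined in the same way. In 72 ribosomal protein genes, 531 pairs of a parent gene and another gene holding at least 20% of its 31-mers had at least 10 summed counts in each library. The share of the copy in the counts of the pair did not overlap between genotypes in 16.2% of pairs before transplant (14.1% higher in TCF-1 cKO, 2.07% lower) and in 12.6% after it (6.97% higher, 5.65% lower). It was higher in TCF-1 cKO at both stages in 5 pairs (0.942%) and lower at both in 0 (0.00% of pairs). In these 5 (Rpl29 with Gm7252, Rpl7 with Gm5045, and Rps2 with Gm10653, Gm11599 and Gm4968) the copy stayed under 1% in every library, against at least 33.5% for Rps3a2 in TCF-1 cKO.

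The sizes differed as well, given as a description, since the Rps3a pair was chosen by its genotype differences in these data. Among the 502 other pairs whose copy is a pseudogene, the genotype difference of the mean share reached at most 7.01 percentage points before and 3.28 after transplant, against 40.9 and 33.2 for Rps3a2. In 433 of the 502 the copy was at 1% or less in every group mean, which left little room for a difference. The widest differences among the remaining pairs were 14.8 percentage points before transplant for Rplp2 with Wdr89, where the libraries overlapped, and -21.3 percentage points post-transplant for Rpl7a with Ciapin1. Those copies lie in annotated protein-coding genes. Rpl21 with BC004004 differed by 9.34 points before and by -21.0 points after transplant, and Rps26 with Med21 by 8.26 and 10.03 points.

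**Figure D5:**
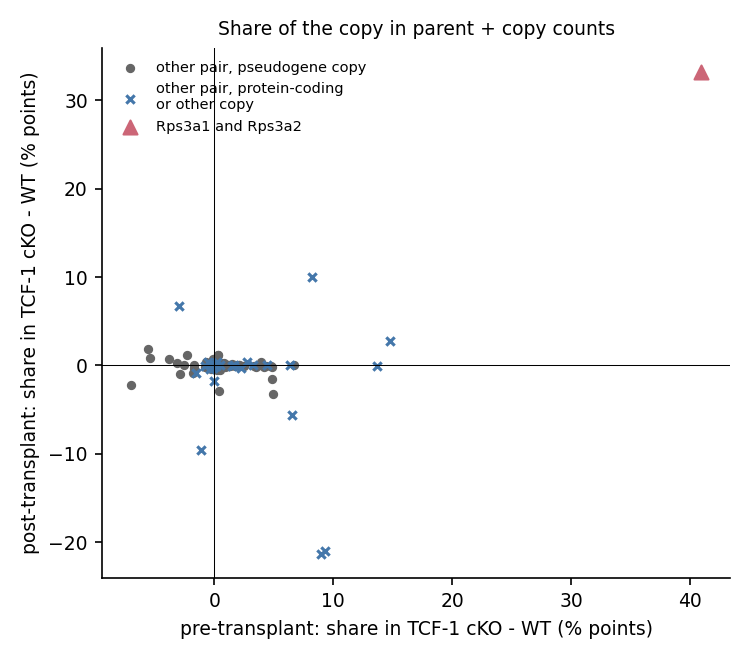
Difference between TCF-1 cKO and WT in the mean share of the copy, in percentage points, before transplant (horizontal axis) and post-transplant (vertical axis) for pairs of a ribosomal protein gene and a copy, with Rps3a2 as the red triangle. Rps3a2 lies at 40.9 and 33.2 points, apart from pairs with a pseudogene copy, which stay within 7.01 and 3.28 points of 0, and from the other pairs, which stay within 14.8 and 21.3. The Rps3a pair was chosen by its genotype differences in these data, so its place is a description.

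Genes near the members on their chromosomes were listed with their genotype differences. Over all genes tested, edgeR called 0.0373% before and 17.9% after transplant, so a count of 0 among few genes says little about either region. Of 22 annotated genes within 1 Mb of Rps3a1, 9 were tested before and 7 after transplant, and 0 were called by edgeR at either stage. The nearest on one side was Sh3d19, at -0.25 before and 1.88 after transplant (adjusted p = 0.893 and 0.131 by edgeR), and on the other Lrba, which encodes a protein of CTLA-4 recycling, at 0.01 and -0.56. Glt28d2 was at 2.95 and 1.60 and Dclk2 at -1.07 and -0.58. Fam160a1, the highest of this region before transplant, was at 3.83 (SE 1.37) and was not tested after it. Gm37025 was at 0.93 after transplant and was not tested before it. None of these was called. Of 11 annotated genes within 1 Mb of Rps3a2, 2 were tested at each stage and 0 were called: Tdrd3, which encodes a Tudor domain protein, was at 0.01 and 2.29 and Gm48930 at 1.00 and 0.42 (log2 fold changes).

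Likeness in pattern was measured as Pearson's r of log2(CPM + 0.5) over the 12 libraries, which share their depth and group structure, and is given as a description. The genes most like Rps3a2, among 21526, were Gm18194 (0.959), Slc22a14 (0.952), Olfr1417 (0.951), Serpina12 (0.949) and Psd2 (0.948). Gm18194, a transcribed processed pseudogene on chromosome 7, had 36.4 to 50.4 counts in TCF-1 cKO and 8.17 to 18.7 in WT before transplant, and 101 to 202 and 2.39 to 8.31 counts after it. The other 4 had at most 53.7 counts in any library. The genes most like Rps3a1 were Trmt6 (0.989), Hif1a (0.979), Copb2 (0.976), Gm9794 (0.975) and Degs1 (0.974), and r between Rps3a1 and Rps3a2 was 0.159.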

How the data were processed

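RNA of sorted CD8 T cells was copied with the SMART-Seq HT kit and made into Nextera XT libraries, in 4 groups of 3 named by their titles. The authors pseudoaligned the reads with kallisto 0.46.2, and the submitters' processing notes also name limma and mm9. The deposited estimated counts, 1 for each of 117497 transcripts, are not scaled for depth or length. The deposited TPM values divide these counts by the effective length of the transcript and bring each library to 1 total. The transcript release is not given in the sources used here. The deposited transcript lengths equalled those of GENCODE M21 (GRCm38) for 115847 transcripts, 116374 had a gene there, and sequences, coordinates and gene types were taken from it. The mean fragment length is transcript length minus deposited effective length plus 1.

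Estimated counts were summed per gene, rounded and tested with edgeR 4.0.16 (TMM, filterByExpr, quasi-likelihood test, Benjamini-Hochberg over all genes tested, FDR 0.1, as the study's threshold). Each standard error is the log2 fold change over the square root of F. Each comparison was fitted on its 6 libraries, and the sum of the pair as 1 row in place of both. The scripts were tested on simulated data. The pre-transplant libraries are described as different mice of each genotype. Nothing says this of the post-transplant ones, so p-values there measure the spread between libraries, which may be technical. Replicates of each group differed by more than counting error.

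The members and gene lists were chosen with earlier results of these data known, so genotype differences of the members carry no p. Named genes were the members, the copies with at least 20% of the 31-mers, the 3 highest and 3 lowest ribosomal protein genes per comparison, the 5 copy pairs that differed most, up to 3 tested neighbours per side, and the 5 genes most alike by r. Pairs with no overlap at both stages were named after their values were seen. Alternatives were DESeq2 1.42.0 (size factors, Wald test), library totals, no filter, CPM above 1 in 3 libraries, limma-voom (limma 3.58.1), log2(TPM + 1) with limma, a loess offset on GC content and length, a replicate block, both together, 1 fit over 12 libraries, and leaving out each library. R 4.3.3, Python 3.11.15, SciPy 1.17.1 and pandas 2.3.3 were used. Base calls and protein sequences were not analysed here.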

Additional observations from a re-analysis of the deposited data

Results flagged for a closer look

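The genotype difference of Rps3a1 had opposite signs at the 2 stages: its log2 fold change of TCF-1 cKO against WT was -1.77 (SE 0.46) before transplant, where every TCF-1 cKO library was below every WT library, and 0.78 (SE 0.51) post-transplant, where on library CPM every TCF-1 cKO library was above every WT library. On TPM the post-transplant groups overlapped. The post-transplant value was 0.11 (SE 0.34) with the GC content and length offset and 0.37 (SE 0.29) without WT post-transplant replicate 2. The difference between the stages was not tested.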

How the results depend on the processing

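Genotype differences of Rps3a1, Rps3a2 and their sum kept their direction at both stages under all 11 other settings and without any 1 library. The GC content and length offset gave -2.42 for Rps3a1 and -1.65 for the sum before transplant, and, post-transplant, 7.31 for Rps3a2 with or without the replicate block, 0.11 for Rps3a1 and 0.70 for the sum. The share difference was 47.9 and 39.9 percentage points on TPM, and 35.9 and 32.6 with every gene that shares 31-mers in the total (pre- and post-transplant).

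The changes between stages in TCF-1 cKO kept their direction and passed the test throughout. In WT the signs were not stable and no setting passed the test. Rps3a1 was at -0.384 under library totals and -0.937 on log2(TPM + 1), and the sum at -0.386 and -0.941, and leaving out 1 library gave -0.0443 to 1.08 for Rps3a1 and -0.0450 to 1.07 for the sum. Rps3a2 turned positive with DESeq2 size factors (0.0762), no filter (0.0614), the DESeq2 Wald test (0.0764), limma-voom (0.78) and 1 fit over 12 libraries (0.15), and ran from -0.65 to 0.96 without 1 library. The cause was not tested.

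Ribosomal protein genes called post-transplant between genotypes numbered 5 with no filter, 14 by the DESeq2 Wald test, 4 with the offset, 0 with block and offset, and 0 to 35 without 1 library. Before transplant the number was 0 to 70 without 1 library. Between stages in WT it was 16 under library totals, 16 on log2(TPM + 1), 30 with block and offset, and 17 to 61 without 1 library. In TCF-1 cKO it was 57 to 75, and 67 to 77 without 1 library. All genes called ran from 0 to 1455 before and 2 to 4525 after transplant between genotypes, and 0 to 2739 and 0 to 5299 without 1 library. Between stages they reached 13174 in TCF-1 cKO and 6732 in WT, both on log2(TPM + 1), and 1579 to 4156 in WT without 1 library. Among called genes, library totals moved the share that was higher from 42.9% to 75.0% before and from 14.1% to 22.3% after transplant between genotypes, and the median of all genes by 0.35 and 0.39.

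The replicate numbers did not pair the libraries: deviations of libraries with the same number from their group means correlated between -0.0943 and 0.0854. With the replicate block alone the change of Rps3a2 between stages in WT was 0.66, and 0.30 with block and offset.

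Depth limits Rps3a2 in WT, where 9.87 to 177 counts per library underlie its level, and the pre-transplant TCF-1 cKO libraries are the shallowest. Within the shared coding sequence, the division of fragments between Rps3a1 and Rps3a2 rests on 4 bases. Fragments that reach the Rps3a1 sequence outside that stretch are told apart without them. The authors' estimate gives no error for the division.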
